A study of Saccharomyces cerevisiae with 26 samples.

Results

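Dense clusters of short A-rich runs are windows of the yeast genome in which the study's mask of adenosine-rich positions was packed with many short runs rather than a single long one. The 16 nuclear chromosomes of S. cerevisiae (build sacCer3) were divided into consecutive windows of 1000 bp, each strand apart, and windows were chosen by 2 values of the deposited list. At least 100 positions of the window had to be masked, and no run of 20 bp or more could reach into it. This gave 34 of 24158 windows (0.141%), called dense windows here, against 24124 other windows. Because the number of masked positions and the length of runs chose them, these values are given as a description with no test.

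The study mapped RNA 3′ ends in total RNA and in RNA labelled for 2 min with 4-thiouracil (4tU). Its 26 libraries came from the anchor-away strains Mex67-AA and Nab2-AA, in which rapamycin removes the tagged protein (the mRNA export factor Mex67 or the poly(A)-binding protein Nab2) from the nucleus, and 12 libraries were from cells given rapamycin for 15 min. The pA+ libraries captured tails already present, the pA+,- libraries were first tailed with E. coli poly(A) polymerase, and 2 mock purifications without 4tU, from Mex67-AA, completed the set. None of these libraries entered the comparisons here, since the mask was derived by the authors from the genome sequence alone and has no samples, replicates or read depth.

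Sequencing of 3′ ends relies on an oligo(dT) primer, which can also anneal to a stretch of As inside a transcript. A read primed there ends at the base just before the As, so such positions are removed from the tracks of their own strand. In protein-coding sequence A-rich stretches can arise where codons for lysine (AAA and AAG) and glutamate (GAA and GAG) follow each other, among other codons rich in A. Both residues are frequent in the long charged alpha helices that pair into coiled coils.

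The following stretches show what such a window looks like. Each coding stretch is the 150 bp, in frame and on the sense strand, that held most masked positions of its window, written 5′ to 3′ with masked positions in capitals and all other bases in lower case. The first pair comes from the genes that led 2 dense windows each, USO1 (chrIV:349670-349819, plus strand, codons 1336 to 1385) and IMH1 (chrXII:751164-751313, minus strand, codons 153 to 202).
USO1: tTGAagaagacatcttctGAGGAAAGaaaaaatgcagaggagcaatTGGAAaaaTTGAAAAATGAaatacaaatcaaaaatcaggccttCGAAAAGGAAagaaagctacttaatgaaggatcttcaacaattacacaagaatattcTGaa
IMH1: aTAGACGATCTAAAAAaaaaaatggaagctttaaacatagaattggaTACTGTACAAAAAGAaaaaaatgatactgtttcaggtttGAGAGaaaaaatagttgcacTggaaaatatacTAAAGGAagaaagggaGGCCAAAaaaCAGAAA
In both, runs of capitals sit before or within groups of As that are broken up by other codons, so that 39 of the 150 positions were masked in USO1 and 56 in IMH1. The USO1 stretch held 8 lysine and 11 glutamate codons among its 50 codons, and the IMH1 stretch 10 and 8.

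The stretches of HEF3 (chrXIV:609262-609411, plus strand, codons 982 to 1031) and HSP82 (chrXVI:97840-97989, minus strand, codons 213 to 262) are shown because their As came with different mixtures of codons.
HEF3: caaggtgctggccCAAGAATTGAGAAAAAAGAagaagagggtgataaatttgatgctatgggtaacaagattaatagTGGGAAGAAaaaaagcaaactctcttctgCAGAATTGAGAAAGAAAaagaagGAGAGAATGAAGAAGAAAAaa
HSP82: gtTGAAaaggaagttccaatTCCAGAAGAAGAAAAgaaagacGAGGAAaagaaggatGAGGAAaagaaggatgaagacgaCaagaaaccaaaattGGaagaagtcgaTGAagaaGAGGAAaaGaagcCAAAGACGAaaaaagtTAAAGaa
The HEF3 stretch had 64 masked positions with 16 lysine but only 6 glutamate codons. The HSP82 stretch had 58 with 16 lysine and 17 glutamate codons, which together made up 33 of its 50 codons.

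Of the windows that lay outside coding sequence of their own strand, only 30 bases are given for each, from chrVII:89804-89833 (minus strand), chrV:141661-141690 (minus strand) and chrIII:163149-163178 (plus strand), with 23, 17 and 19 masked positions.
VII: GGAGAACTTGAAAAAAAAaattaaTAACAa
V: TAATCTTAAAAAAGACaaacaaacaatCaa
III: tagttTGAAGTTGAGAAAAAAAaagagaTG
In each of them the capitals run into an unbroken row of As.

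The dense windows held 3834 masked positions in 962 runs, which was 0.595% of the 644531 masked positions of all nuclear windows. The lowest window had 100 masked positions, the median window 109 and the highest 145, against a median of 22 in other windows. They held 14 to 37 runs with a median of 29, against a median of 9 in other windows. Their density therefore came with many runs, each of them short. The median run was 2 bp long in both kinds of window, the mean run was 4 bp in dense and 2.92 bp in other windows, and runs of 1 bp made up 30.8% and 44.6%. The longest run of a dense window was 8 to 19 bp, with a median of 15 bp. At the limit, 4 windows had a longest run of 19 bp, and 3 windows (those of SMC4, MLP1 and STH1) had none of 10 bp or more.

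Many windows were close to the limit of 100. Exactly 100 positions were masked in 4 dense windows (SAS10, NHP10, STH1 and the window on chromosome III without a sense gene) and 101 in 2 (BBC1 and HAP4), and 9 windows were within 4 positions of the limit. Just outside were MYO1 with 99 and MRC1, GIN4, BTN2 and a window of chromosome XV with 98 each. A further 132 windows had at least 100 masked positions but were left out because a run of 20 bp or more reached into them, and these are called long-run windows below.

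**Figure D1:**
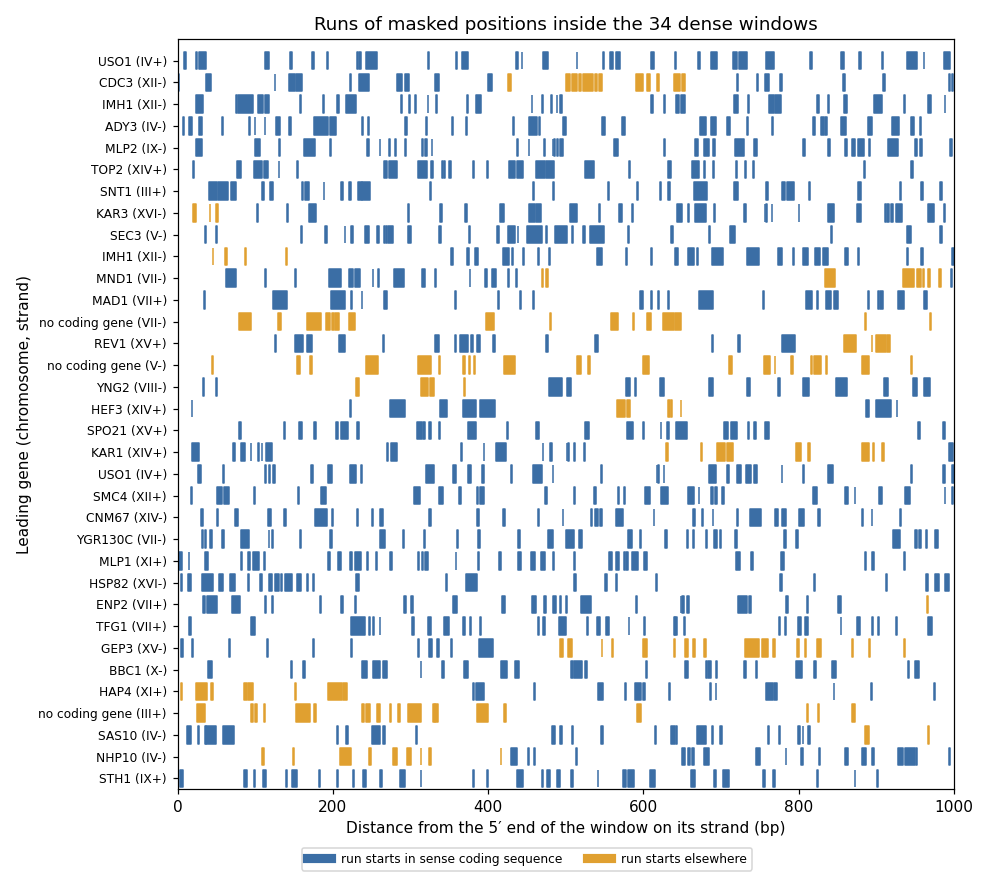
Every run of masked positions in the 34 dense windows, drawn along the distance in bp from the 5′ end of the window on its strand, 1 window per row with its leading gene, chromosome and strand, ordered by masked positions (145 at the top, 100 at the bottom). Blue runs start in coding sequence of the same strand and orange runs elsewhere; most rows are blue, and 3 rows are wholly orange.

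The dense windows lay on 12 of the 16 nuclear chromosomes, 16 on the plus and 18 on the minus strand. Chromosome VII had 6, IV had 5, XII and XIV had 4 each, XV had 3, III, V, IX, XI and XVI had 2 each, and VIII and X had 1 each, while I, II, VI and XIII had none. Per 1000 windows, the highest numbers were 3.15 on III and 2.75 on VII, and the lowest among chromosomes with any was 0.67 on X. They were not confined to chromosome ends, since their distance to the nearest end ranged from 27 to 447 kb with a median of 222 kb. The distance to the centromere ranged from 2.21 to 658 kb. A dense neighbour on the same strand was found for 4 of the 34, as 1 pair in USO1 and 1 pair in IMH1. Of all windows, 0.141% were dense. The 68 neighbouring windows had between 2 and 145 masked positions with a median of 38.5, against a median of 22 in other windows. Of the dense windows, 13 had a neighbour with 60 or more.

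Dense windows were mostly coding sequence read in the sense direction. Coding sequence of the same strand covered 80.2% of their positions, against 36.1% in other windows. The median dense window was 98.5% sense coding, and the median other window 15.6%. Chromosome by chromosome, the dense windows exceeded the others by 44.8 ± 16.2 percentage points (mean difference ± SD, n = 12 chromosomes), and the share was higher on 12 of 12 chromosomes (two-sided exact sign-flip permutation test over chromosomes, p = 0.00049, the smallest p that 12 chromosomes allow, adjusted p = 0.002 over 4 tests). The chromosomes are parts of a single genome sequence and not replicates, so this p measures only the spread between them. The smallest differences were on III (15.4 percentage points) and V (16.1), where 1 of 2 dense windows had no sense coding sequence, and the largest was on IX (64.7).

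Sense coding sequence filled 16 of the 34 dense windows completely (47.1%), against 15.7% of other windows and 18.9% of the 132 long-run windows. At least 90% of the window was sense coding in 19 (55.9%, against 19% of other windows). At the other extreme, 3 dense windows had no sense coding sequence (8.82%), against 45.3% of other and 24.2% of long-run windows. Pooled, long-run windows were 51.6% sense coding. Over 12 chromosomes, the dense windows exceeded long-run windows by a mean of 35.5 percentage points (two-sided exact sign-flip permutation test, p = 0.00049). Coding sequence of the opposite strand reached into 6 of the 34 dense windows and into 13217 of the 24124 other windows.

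**Figure D2:**
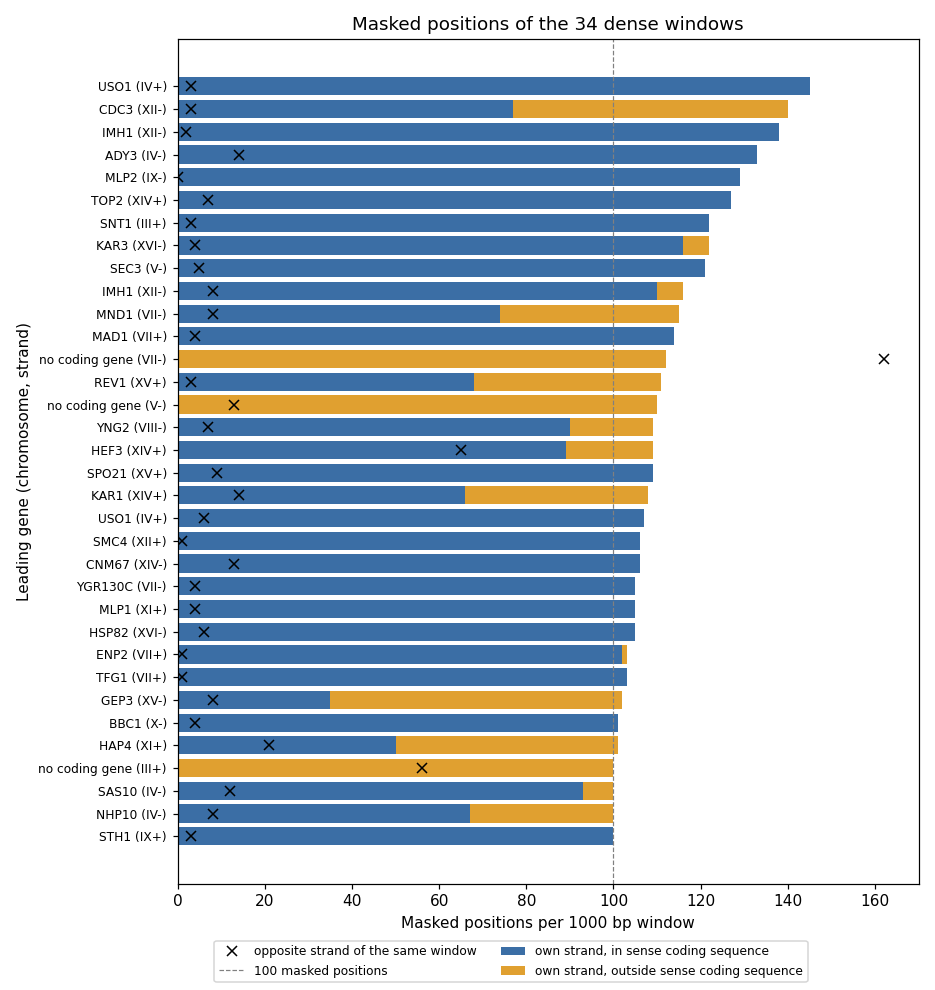
Masked positions per 1000 bp window for the 34 dense windows (horizontal axis), split by colour into those in sense coding sequence (blue) and those outside it (orange), with crosses for masked positions on the opposite strand of the same window and a dashed line at 100. Blue fills most bars, together 3113 of 3834 positions. The cross lies beyond the end of the bar only in the window of chromosome VII without a sense gene (162 against 112).

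A window's leading gene is the one with most coding sequence in it on its strand. Masked positions and runs given below for a gene are those of the whole window it led, unless stated otherwise. The 31 windows with sense coding sequence had 29 different leading genes, because USO1 and IMH1 each led 2. Of these windows, 16 lay inside a coding sequence and reached neither its start nor its stop codon, 10 reached the stop codon and 5 reached the start codon. Masked positions in sense coding sequence numbered 3113, or 81.2% of those in dense windows, against 41.5% in other windows. Counting genes with at least 100 bp of coding sequence in a dense window of their strand gave 32 of 6002 protein-coding genes (0.533%), the 29 leading genes and SPH1, SPO1 and MSR1.

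The first 6 windows described were led by genes of membrane traffic and endocytosis. USO1 (YDL058W, chrIV:345665-351037, plus strand) encodes the coiled-coil tether of vesicles that travel from the endoplasmic reticulum to the Golgi, and its windows had 145 masked positions in 35 runs and 107 in 31 runs, covering codons 779 to 1446 of 1791. Over the whole gene 411 of 5373 coding positions were masked (7.65%), 61.3% of them in the dense windows, and outside these windows the share was 4.71%. IMH1 (YLR309C, chrXII:749034-751769, minus strand), a coiled-coil golgin of the Golgi, had windows with 138 and 116 masked positions that held 83.2% of the masked positions of the gene. The whole IMH1 coding sequence was masked at 10.9%, and at 5.17% outside the windows. SEC3, a subunit of the exocyst that tethers secretory vesicles, had 121 masked positions in 30 runs. BBC1, a protein of cortical actin patches, had 101 in 26 runs.

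The next 12 windows are described together for convenience, by known roles at the nuclear pore, spindle, prospore membrane, septin ring and chromosomes, and do not form a list that was counted. MLP2 and MLP1, which encode the long filaments of the nuclear basket, had 129 and 105 masked positions, each in 37 runs, the highest number of runs among dense windows along with that of IMH1. Both were masked along their whole length: only 26.9% (MLP2) and 23.3% (MLP1) of the masked positions of the gene lay in the dense window, and the share outside it was 8.66% and 7.45%. Among spindle genes, KAR3, a minus-end-directed kinesin, had 122 masked positions, MAD1, of the spindle checkpoint, 114, KAR1, of the half-bridge of the spindle pole body, 108, and CNM67, of its outer plaque, 106. SPO21, of the outer plaque in meiosis, had 109, and ADY3, which acts at the leading edge of the prospore membrane, had 133 in 36 runs.

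The others act on chromosomes or in the septin ring. TOP2, topoisomerase II, had 127 masked positions in 30 runs over codons 1100 to 1429, the end of its coding sequence of 1429 codons. SMC4, the condensin subunit, had 106 in runs of at most 8 bp. MND1, needed for meiotic recombination, had 115, of which 74 were in coding sequence, and its own coding sequence of 660 bp was masked at 14.1%, the highest share among the 32 genes. CDC3, a septin of the bud neck, shared its window with SPH1, of polarized growth, and of 140 masked positions 77 were in coding sequence and 63 in the 232 bp between the genes, a share of 27.2%.

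A further 6 windows were led by genes with known roles in chromatin or transcription. SNT1, of the Set3 histone deacetylase complex, had 122 masked positions in 29 runs. YNG2, of the NuA4 histone acetyltransferase, had 109 in 19 runs, in a window that MSR1, the mitochondrial arginine-tRNA ligase, reached with 162 bp holding 3 masked positions. TFG1, of the general factor TFIIF, had 103 in 34 runs. NHP10, of the INO80 remodelling complex, and STH1, the ATPase of the RSC remodelling complex, had 100 each. These genes differed in size: NHP10 is 612 bp long and was masked at 11.4%, and STH1 is 4080 bp long and was masked at 6.05%. HAP4, the activator of respiratory genes, had 101 masked positions of which 50 were coding and 51 lay in the 226 bp before its start codon, where 22.6% of positions were masked.

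The last 7 genes have varied roles. ENP2 and SAS10, both needed for processing of ribosomal RNA, had 103 and 100 masked positions. HSP82, an Hsp90 chaperone with a charged linker, had 105, which was 73.4% of the masked positions of the gene, and 3.36% of its other coding positions were masked. The window of HEF3, a paralogue of translation elongation factor 3, had 109 in only 14 runs, the fewest of any dense window. Of these positions 66 lay in the coding sequence of HEF3, which was masked at 1.83% outside the window. The HEF3 window also held 231 bp of SPO1 and an annotated origin of replication (chrXIV:609520-609607). REV1, the deoxycytidyl transferase of translesion synthesis, had 111, with 43 of them in 215 bp after its stop codon (20%). GEP3, a mitochondrial protein, had 102, of which 35 were coding and 67 lay in 563 bp outside coding sequence (11.9%). YGR130C, annotated as uncharacterized, had 105 in 34 runs.

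The coding sequences of the 32 genes had a median length of 2199 bp (612 to 5628 bp) against 1194 bp for all protein-coding genes, and 7.10% of their positions were masked in the median gene (2.69% to 14.1%) against 2.61%. Outside the dense windows the median was 4.36%. Longer genes fill more windows, and the part of gene length in these counts was not tested. The share of all protein-coding genes in this count, 0.533%, is the background for the lists that follow. Among the gene lists examined, that of spindle pole, kinetochore and motor proteins had 5 of 66 in the count (7.58%), with a median coding length of 2010 bp. These were MLP2, KAR3, CNM67, SMC4 and MLP1. MLP1 and MLP2 belong to the nuclear basket and SMC4 to condensin, so the share is not that of spindle genes alone. Vesicle tethering and endocytosis genes had 4 of 41 (9.76%; USO1, IMH1, SEC3 and BBC1), with a median coding length of 2040 bp. Ribosome biogenesis genes had 2 of 162 (1.23%; ENP2 and SAS10), although their median masked share was 5.32%. The chromatin list had 1 of 85 (1.18%; STH1) and the list of translation factors 1 of 48 (2.08%; HEF3). The lists are not complete: SNT1, YNG2 and NHP10 are not in the chromatin list, and MAD1 and KAR1 are not in the spindle list. Cytosolic ribosomal protein genes had 0 of 129, splicing genes 0 of 70 and glycolysis genes 0 of 21, with median masked shares of 4.13%, 4.08% and 1.90%. These counts describe the lists, which were not tested against other genes.

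Masking was also dense in some sequence outside sense coding sequence. In 11 dense windows with at least 150 bp both inside and outside sense coding sequence, the masked share outside ranged from 2.60% to 27.2%, and in 5 of the 11 it was the higher one. The 3 windows with no sense coding sequence lay on chromosomes VII, V and III. The minus-strand window of VII (chrVII:89001-90000, 112 masked positions in 16 runs) lay between SKI8, whose coding sequence ends 5′ of it on the same strand, and CLG1, which overlaps it by 339 bp in antisense. That of V (chrV:141001-142000, minus strand, 110 in 22 runs) overlapped MIT1 by 109 bp in antisense. That of III (chrIII:163001-164000, plus strand, 100 in 20 runs) overlapped PMP1 by 67 bp and YCR025C by 411 bp, both in antisense.

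The mask of the opposite strand was sparser in dense windows. The rule did not use that strand, but it asked for positions followed by As on the window's own strand. A masked position on the opposite strand needs Ts there, so the tests against other windows were not independent of the rule. Pooled, 1.42% of the opposite-strand positions of dense windows were masked, against 2.67% in other windows. The median dense window had 6 such positions (0 to 162) and the median other window 22, and fewer than 10 were found in 25 of 34 dense windows (73.5%) against 19.3% of other windows. Over chromosomes, the dense windows differed by -1.48 ± 1.02 percentage points (mean difference ± SD, n = 12), and were higher on 2 of 12 chromosomes (two-sided exact sign-flip permutation test, p = 0.0034, adjusted p = 0.0068 over 4 tests). The exceptions were III (2.95% against 2.65%) and VII (3.00% against 2.72%), each with a dense window that had no sense coding sequence. Chromosome V also had such a window, but its dense windows were lower (0.9% against 2.66%). No dense window had a dense opposite strand, which says little because only 0.141% of all windows were dense.

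In windows with at least 90% sense coding sequence the opposite strand held few masked positions. MLP2 had 0 masked positions there, SMC4 and TFG1 had 1 each, and the 19 windows ranged from 0 to 14 with a median of 4. Other windows with as much sense coding sequence had a median of 9. The difference was therefore present within coding windows too, at -0.598 percentage points (0.489% against 1.07%, higher on 0 of 11 chromosomes, two-sided exact sign-flip permutation test, p = 0.00098). Over all dense windows, whatever their coding share, the comparison with long-run windows (1.94% pooled) gave a mean difference of -0.923 percentage points. The dense windows were higher on 4 of 12 chromosomes (two-sided exact sign-flip permutation test, p = 0.02).

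The highest opposite-strand values came from few windows. The window of VII had 162 masked positions on its opposite strand, more than on its own, and a run of 49 bp lay there. HEF3 had 65, the window of III 56, HAP4 21, and ADY3 and KAR1 14 each. ADY3 filled its window with sense coding sequence, whereas HEF3, HAP4 and KAR1 left part of theirs outside it. Leaving out the window of VII gave -1.70 percentage points (p = 0.0015, exact sign-flip permutation test) and leaving out the 3 windows without sense coding sequence gave -1.95 (p = 0.00049, same test). A masked position on the opposite strand needs Ts on the window's own strand, and the dense windows had 40.8% A and 24.0% T on their strand against 30.8% A and 30.9% T in other windows. In windows with at least 90% sense coding sequence these values were 42.4% A and 22.1% T against 32.9% and 28.2%. The part of base composition in the opposite-strand difference was not tested.

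**Figure D3:**
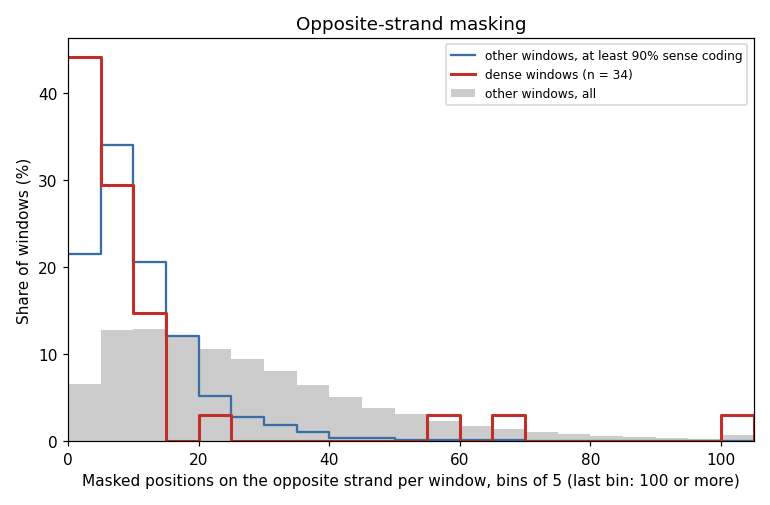
Share of windows in percent (vertical axis) by the number of masked positions on the opposite strand, in bins of 5 with 100 or more in the last bin, for dense windows (red line, n = 34), all other windows (grey bars) and other windows with at least 90% sense coding sequence (blue line). The dense windows are concentrated in the lowest bins, with 25 of 34 under 10 positions, and the window of chromosome VII with 162 stands in the last bin.

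If runs marked lysine codons individually, their starts would be spaced in multiples of 3 bases. The distances cannot decide this, because the written criteria ask for more As than a lysine codon holds. Neighbouring A-rich codons can also fall in the same run, which leaves no distance between them. The shares below therefore describe only the spacing of runs. No excess of multiples of 3 over other windows was detected in dense windows. Consecutive runs of a dense window started a median of 25 bp apart, against 54 bp in other windows. Of 906 distances 533 were between 4 and 30 bp, a range with 9 possible distances of each remainder on division by 3. Distances of 3 bp also occurred, but they lie below this range and were not counted. Multiples of 3 made up 181 of them (34%), remainder 1 made up 175 (32.8%) and remainder 2 made up 177 (33.2%). In other windows the shares were 34.5%, 33.2% and 32.2% of 65296 distances. Over chromosomes the share of multiples of 3 differed by 2.42 ± 11.2 percentage points (SD, n = 12, higher on 8 of 12; two-sided exact sign-flip permutation test, p = 0.48, adjusted p = 0.48). The pooled difference had the other sign (-0.555), so no direction is given. Measured between run ends instead, multiples of 3 were fewer in dense windows (29.4% against 34.8%, -4.78 percentage points, with 3 of 12 chromosomes higher, p = 0.0088 by the exact sign-flip permutation test).

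Single members spread widely around these shares, on few distances each. Multiples of 3 were 11 of 16 distances in SAS10, 8 of 13 in ENP2 and 9 of 18 in TOP2. They were 2 of 18 in the first USO1 window, 3 of 18 in CDC3, 0 of 9 in HAP4 and 0 of 7 in HEF3. The median window had 32.5% multiples of 3 over 5 to 25 distances, and more than 1 in 3 distances were multiples of 3 in 16 of the 34 windows. Restricting the comparison to windows with at least 90% sense coding sequence gave 33.9% in dense and 35.9% in other windows, while other windows with no sense coding sequence had 33.6%. Within the counted range, which leaves out 3 bp, the shortest multiples were not the most numerous in dense windows. There were 19 distances of 6 bp, 26 of 9 bp and 32 of 12 bp. Other windows had the same order, with 1518, 3501 and 4235.

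**Figure D4:**
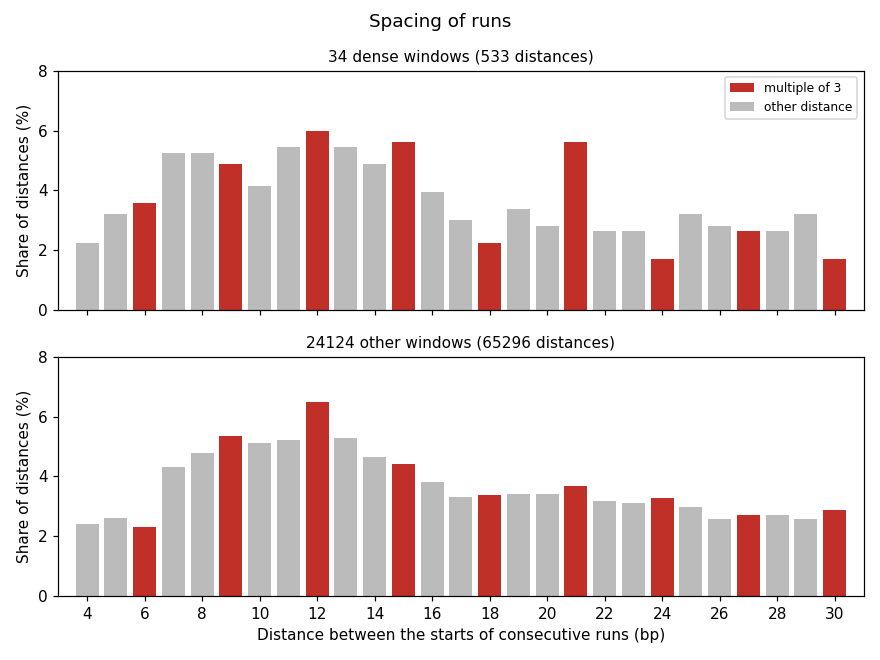
Share in percent (vertical axis) of distances between the starts of consecutive runs, for each distance of 4 to 30 bp, in dense windows (top, 533 distances) and other windows (bottom, 65296 distances), with multiples of 3 in red. Red bars do not stand above their neighbours in regular fashion in the dense windows, where multiples of 3 were 34% of the distances.

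Run starts were spread unevenly over the 3 codon positions. Of 814 runs of dense windows that started in sense coding sequence, 334 (41.0%) started at the third codon position, 289 (35.5%) at the second and 191 (23.5%) at the first. A start at the third position is followed by whole codons. In other windows the shares were 43.2%, 37.9% and 18.9% of 101191 starts. Dense windows therefore had the same order of positions as other coding sequence, and the third position differed by -2.27 ± 4.85 percentage points (SD, n = 12 chromosomes, higher on 5 of 12; two-sided exact sign-flip permutation test, p = 0.13, adjusted p = 0.18). Without chromosome XVI it was -3.02 (p = 0.047, exact sign-flip permutation test). The first position differed by 5.07 ± 8.71 percentage points (p = 0.059) and the second by -2.80 ± 9.15 (p = 0.31, both exact sign-flip permutation tests over 12 chromosomes, outside the 4 adjusted tests). HSP82 had 17 of 27 starts at the third position, ENP2 16 of 27 and SAS10 14 of 25. In CNM67 the first position led, with 12 of 32 starts, and in SMC4 the second, with 18 of 30.

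The codons of dense windows are given as a description, since the mask was made from the As of the same strand. Among 9072 sense codons, 13.3% were for lysine and 13.7% for glutamate, against 7.30% and 6.54% of the codons of other windows. Long-run windows had 12.9% and 12.2%. Each of the 4 codons concerned was more frequent than in other windows: AAA 8.55% against 4.23%, AAG 4.78% against 3.07%, GAA 9.73% against 4.57% and GAG 3.98% against 1.97%. Codons made only of purines were 31.5% against 18.6%. Long-run windows were also above other windows, with 30% for codons made only of purines, AAA 7.17%, AAG 5.72%, GAA 8.95% and GAG 3.2%. The arginine codons AGA and AGG (3.53% against 3.07%), asparagine (7.05% against 6.10%), glutamine (4.87% against 3.93%) and leucine (9.94% against 9.52%) were closer to the other windows. Less frequent in dense windows were glycine (2.71% against 5%), proline (2.77% against 4.33%), phenylalanine (2.49% against 4.47%) and tryptophan (0.441% against 1.04%). Long-run windows were also below other windows for these residues, at 3.97%, 3.39%, 2.9% and 0.662%. Alanine (4.48% against 5.52%), valine (3.67% against 5.59%) and cysteine (0.54% against 1.28%) were among others that were less frequent too. The cause of these differences was not tested.

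Members reached the density in different ways. Among the 31 dense windows with at least 100 sense codons, lysine ranged from 8.28% (GEP3) to 18.6% (MND1) with a median of 13.5%, and glutamate from 3.88% (HAP4) to 21.6% (the first USO1 window) with a median of 13.0%. At least 10% of both was found in 22 of the 31, against 3.65% of the 10680 other windows with as many codons. The first USO1 window paired its glutamate with 16.2% lysine, while SEC3 had 19.5% glutamate and only 8.71% lysine. HEF3 was the reverse, with 15.8% lysine and 7.89% glutamate. MAD1 had 10.5% and 9.61%, with 22.8% purine-only codons, and HAP4 16.7%, the lowest. The 150 bp of MAD1 with most masked positions held 84 As but only 4 lysine and 2 glutamate codons of 50. Repeated AAT codons, for asparagine, made up much of it.

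**Figure D5:**
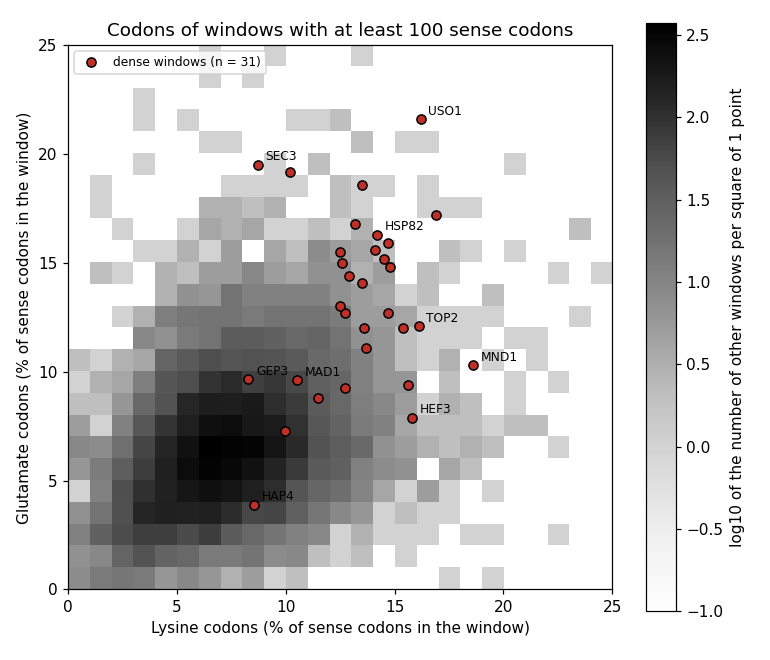
Lysine codons (horizontal axis) and glutamate codons (vertical axis) in percent of the sense codons of a window, for the 31 dense windows with at least 100 sense codons (red points) over the 10680 other windows (grey squares, darker for more windows on a log10 scale). Most red points lie above 10% on both axes, and HAP4, with 8.53% lysine and 3.88% glutamate, lies lowest on the vertical axis.

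Among other windows, which include the long-run windows, the highest lysine share was 24.1%, and 271 reached the dense median of 13.5%. The choice of codon varied between members. AAA was 64.1% of the lysine codons in dense windows and 58.0% in other windows, but only 27.7% in HSP82 and 45.9% in SAS10, and 88.5% in REV1. GAA was 71.0% of the glutamate codons in dense and 69.9% in other windows. The 6 bases after a masked position were most often AAAAAA in both, at 7.75% of masked positions in dense windows and 9.43% in other windows, followed in dense windows by AAAGAA (4.43%). GAAGAA, a pair of glutamate codons when in frame, followed 3.39% and 3.59%, and AAGAAG, a pair of lysine codons, 3.03% and 3.16%.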

How the data were processed

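The authors deposited the A mask as start and end positions of runs on each strand of sacCer3. They selected these positions from the genome sequence alone, by either more than 4 As without any pyrimidine among the next 6 bp or more than 12 As among the next 18 bp, and subtracted them from the 3′ end tracks. The list holds no measured value, counts or depth, and libraries were not analysed here. The written criteria selected 41.6% of the masked positions of dense windows and 45.3% of those of other windows. Of the same positions, 33.3% and 37% had exactly 4 As with neither C nor T in the 6 bp, just under the written limit. These shares do not cover all masked positions, and what selected the remainder was not tested.

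Coding sequence was taken from the NCBI RefSeq annotation of assembly R64, whose sequence is that of sacCer3, and printed sequences are from that assembly. Some stretches are not reported here. The 1000 bp windows started at the first base of each chromosome, and the shorter last windows were included. Shares per chromosome were compared between dense and other windows by two-sided exact sign-flip permutation over the 12 chromosomes with dense windows, with Benjamini-Hochberg adjustment over 4 tests and a threshold of 0.05. Calculations used Python 3.11.15, numpy 2.4.6, scipy 1.17.1 and matplotlib 3.10.9, and were tested on simulated data.

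The genes to name were the leading genes of the 15 windows with most masked positions, of the 5 with the lowest sense coding share and of the 5 with most opposite-strand masking, genes in 3 or more dense windows, and up to 3 genes of each list with most masked positions in dense windows. The other leading genes, and those just under the limit or beside the windows, were named after their values were seen, to account for every member. The members and the gene lists were chosen with earlier results of these data known.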

Additional observations from a re-analysis of the deposited data

How the results depend on the processing

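The sense coding difference and the opposite-strand difference kept their direction and stayed below the exact test's threshold of 0.05 under every alternative with a test, and 36 of 50 alternatives left their result in place. Their sizes ranged from 16.9 (no limit on run length) to 61.3 percentage points (at least 120 masked positions) for sense coding and from -2.23 (at least 120) to -0.598 (within coding windows) for the opposite strand. The number of dense windows depended on the limits: 73 with at least 90 masked positions, 9 with at least 120, 13 with no run of 15 bp or more, 166 with no limit on run length and 365 with windows of 500 bp and 50 masked positions. It was 0 with the list recomputed from the written criteria, where the 34 windows held 25 to 73 masked positions. That list omits positions with exactly 4 As unless they meet the other criterion, and also the remaining masked positions that meet neither criterion. Windows shifted by 500 bp gave 32.

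The spacing difference changed sign, to -0.968 percentage points with shifted windows, -1.68 with at least 90 masked positions, -0.333 with no run of 15 bp or more, -2.77 with no limit on run length (exact permutation p = 0.038), -0.555 pooled, -1 within coding windows and -4.78 between run ends (exact permutation p = 0.0088). The third codon position gave 0.974 with shifted windows. The cause was not tested. Leaving out each chromosome in turn gave 43.0 to 47.5 for sense coding, -1.64 to -1.39 for the opposite strand, 0.244 to 3.92 for spacing and -3.02 to -1.60 for the third codon position. These, the comparison with long-run windows only and the removal of single windows were chosen after seeing the data. The alternative without dubious genes was not run, since no gene could be set apart as dubious from the annotation.

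No paired analysis was possible because the list has no samples and no replicate numbers.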

Other observations

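With windows shifted by 500 bp, 32 windows met the same limits, and their 27 leading genes shared 9 with the 29 leading genes described above (31% and 33.3%). The shifted window across the 2 windows of IMH1 had 172 masked positions, and one of chromosome III without a sense gene (chrIII:162501-163500, plus strand) had 149. Among genes that led only a shifted window, UME6 represses early meiotic genes. Its window had 127 masked positions and 489 bp of sense coding sequence. The window of SPC110, the spacer of the spindle pole body, had 119 and that of RAD50, of the Mre11 complex, had 112. Ribosome biogenesis genes appeared as well, with 111 for RRP14, 110 for NOP12, 108 for NOP14 and 107 for RRP36. MLP2 led 3 shifted windows, with 119, 107 and 107 masked positions.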
